A study of Gallus gallus with 15 samples.

Results

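Gene expression in the untreated liver of broiler breeder hens, which lay the eggs that meat chickens hatch from, is described from 5 RNA sequencing libraries. They are the libraries labelled 0 mg metformin, liver, 65 weeks, chosen by that label, and they make up 5 of the 15 libraries of the series. Per the labels' protocols, these hens took part in a feeding trial with 45 hens per treatment that ran for 40 weeks, from 25 to 65 weeks of age. They received metformin at 0 mg/kg of body weight. The other 10 libraries, from hens given metformin, were not used. Libraries were prepared with a stranded mRNA kit from 200 ng of liver RNA each. The labels give neither the laying state of the hens nor whether the libraries stand for separate hens, so the spread among libraries may be partly technical.

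The liver of a laying hen makes the raw material of egg yolk. Under oestrogen, hepatocytes secrete vitellogenins and very low density lipoprotein particles that carry apolipoprotein B and apovitellenin 1, and the ovary takes both up from blood. Birds also build most of their fatty acids in the liver rather than in fat tissue, and they dispose of nitrogen as uric acid, which comes from purine synthesis. Beside this the liver releases albumin, clotting factors, complement and the acute phase proteins, whose amounts in plasma change during inflammation.

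Reads assigned to genes numbered 21435678 to 26494240 per library. Of 24154 genes in the table, 18259 had at least 1 read in these libraries and 12057 had a mean of at least 1 CPM, the usual depth-scaled read count, adjusted by edgeR's TMM factors. Ribosomal RNA genes took 10.28%, 12.67%, 18.68%, 8.905% and 8.493% of gene reads in controls 1 to 5. Spearman's rho across 7199 genes, which are not independent replicates, ran from 0.871 between controls 3 and 4 to 0.933 between controls 2 and 5. Control 3 stood apart on the first principal component, with 38.1% of the variance, and control 4 lay at its other end.

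Hepatocyte markers were abundant. Of 29 marker genes in the table, 28 had a mean of at least 1 CPM, and together they held 11.8% ± 1.23 of gene reads (SD, n = 5). The bile acid carrier SLC10A1 was listed at 0. HNF4A, a transcription factor that defines hepatocytes, stood at 133, 112, 101, 102 and 102 CPM in controls 1 to 5. Markers of pancreas, muscle, intestine and oviduct were sparse: 13 of 32 were listed at 0 and 6 reached a mean of 1 CPM, among them the amylase gene AMY1A at 84.95 to 135.6 CPM.

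Genes of secreted proteins took the largest share of the 3 kinds of class described. The 140 genes of the secreted classes took 25.5% ± 1.29 of gene reads (SD, n = 5), the 502 genes of the metabolic classes 13.0% ± 1.5, and the 189 genes of the translation, secretion and proteasome machinery 6.60% ± 1.40. Without control 3 these shares were 25.4%, 13.6% and 7.09%. Each gene was counted in a single class. Read shares and CPM are not divided by transcript length, so they show where the reads went and do not rank genes by number of transcripts.

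The 20 genes with most reads held 22.5% ± 0.31 of gene reads, and 15 of them belonged to the secreted classes and 3 to the metabolic ones. Ribosomal RNA genes were set aside from this ranking. So were the 24 EYY68 genes, which the annotation table used here does not hold. The EYY68 genes took from 1.476% of gene reads in control 4 to 4.026% in control 1. APOV1, which encodes apovitellenin 1, took 3.93% ± 1.06, ALB, which encodes albumin, 3.35% ± 0.77, and vitellogenin VTG2 2.24% ± 0.38. These 3 genes led in controls 1, 2, 4 and 5. In control 3 the gene with most reads was HPX, which encodes the haem-binding hemopexin, at 47370 CPM, against 9695, 10070, 18620 and 13020 CPM in controls 1, 2, 4 and 5. APOA2, an apolipoprotein of high density lipoprotein that no class held, took 0.597% ± 0.123. The row named ARIH1_1, which the annotation table used here does not hold, took 0.553% ± 0.536, with 14700 CPM in control 1 and 2264 to 4763 CPM in the others, and its SD of log2 CPM of 1.09 became 0.468 without control 1. The gene ARIH1 itself stood at 43.6 to 62.7 CPM.

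**Figure D1:**
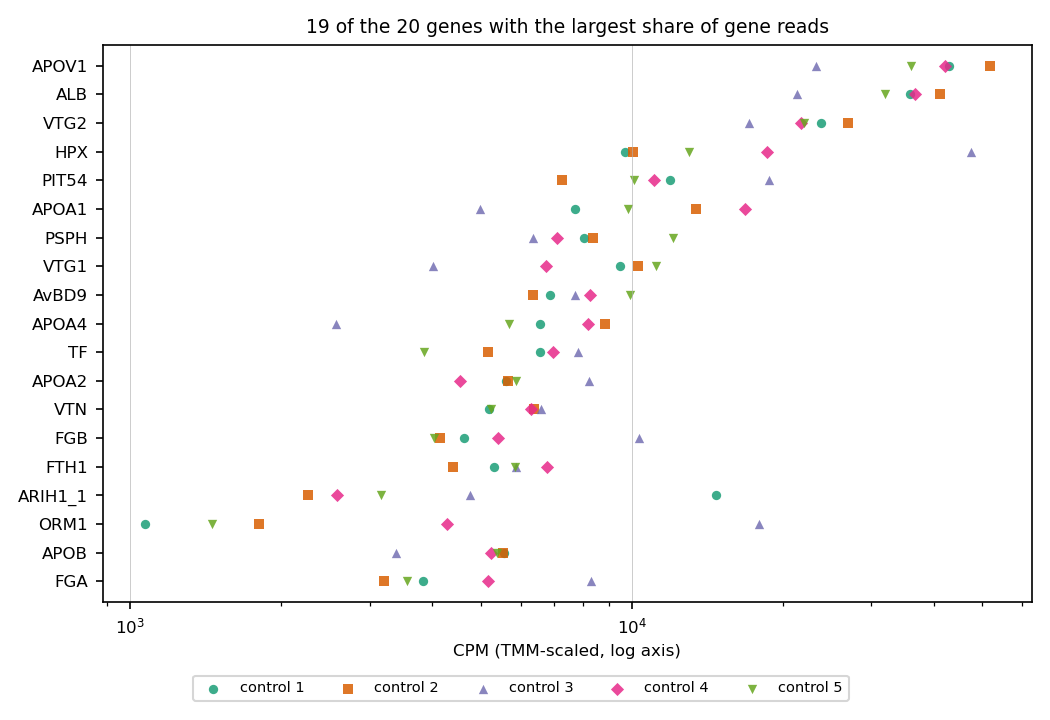
CPM on a log axis of 19 of the 20 genes with the largest share of gene reads, one symbol per control library. Control 3 lies above the other 4 libraries for HPX, ORM1, FGA and FGB and below them for APOV1, ALB, VTG1 and APOA4, and control 1 lies above the rest for ARIH1_1.

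Yolk precursors and plasma carriers were the classes with most reads, and their order differed among libraries. The 5 yolk genes VTG1, VTG2, VTG3, APOV1 and RBP took 8.318%, 9.131%, 4.480%, 7.403% and 7.808% of gene reads in controls 1 to 5. Carriers took 8.078%, 7.822%, 11.75%, 9.515% and 7.804%, less than yolk precursors in controls 1, 2 and 5 and more in controls 3 and 4. Without control 3 the mean share of yolk precursors was 8.17%. All 5 had their lowest level in control 3, under each of 4 library scalings, beside 29.3% of all genes. VTG1 stood at 9455, 10310, 4023, 6749 and 11180 CPM. VTG2, the main vitellogenin by reads, stood at 23810, 26920, 17090, 21760 and 22020 CPM. VTG3 ran from 1148 to 2806 CPM, and RBP, the riboflavin-binding protein of yolk and white, from 1315 to 2611 CPM. APOV1 stood at 42860, 51720, 23270, 42200 and 35980 CPM. None of these genes passed the limit for a variable gene, an SD of log2 CPM of at least 1 over the 5 libraries, which 2.11% of the 7199 genes with a mean CPM of at least 10 passed. ESR1, the oestrogen receptor gene, had few reads, at 3.45 to 6.23 CPM.

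Other apolipoproteins and lipid transfer genes took 2.85% ± 0.94 of gene reads. APOA1, the main protein of high density lipoprotein, stood at 7694, 13450, 4983, 16820 and 9840 CPM. APOA4 stood at 6571, 8842, 2576, 8167 and 5680 CPM. APOB, the structural protein of yolk lipoprotein, was steadier at 5554, 5549, 3392, 5250 and 5379 CPM. APOC3, an inhibitor of triglyceride clearance, ran from 1703 to 6058 CPM, with its ends in controls 3 and 4. Control 3 was lowest for 9 of the 12 members that reached a mean of 10 CPM, and for 8 or 9 of them under the other scalings, beside 29.3% of all 7199 genes. APOA2, which is not counted in this class, went the other way, at 8228 CPM in control 3 against 4548 to 5875 CPM in the rest.

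**Figure D2:**
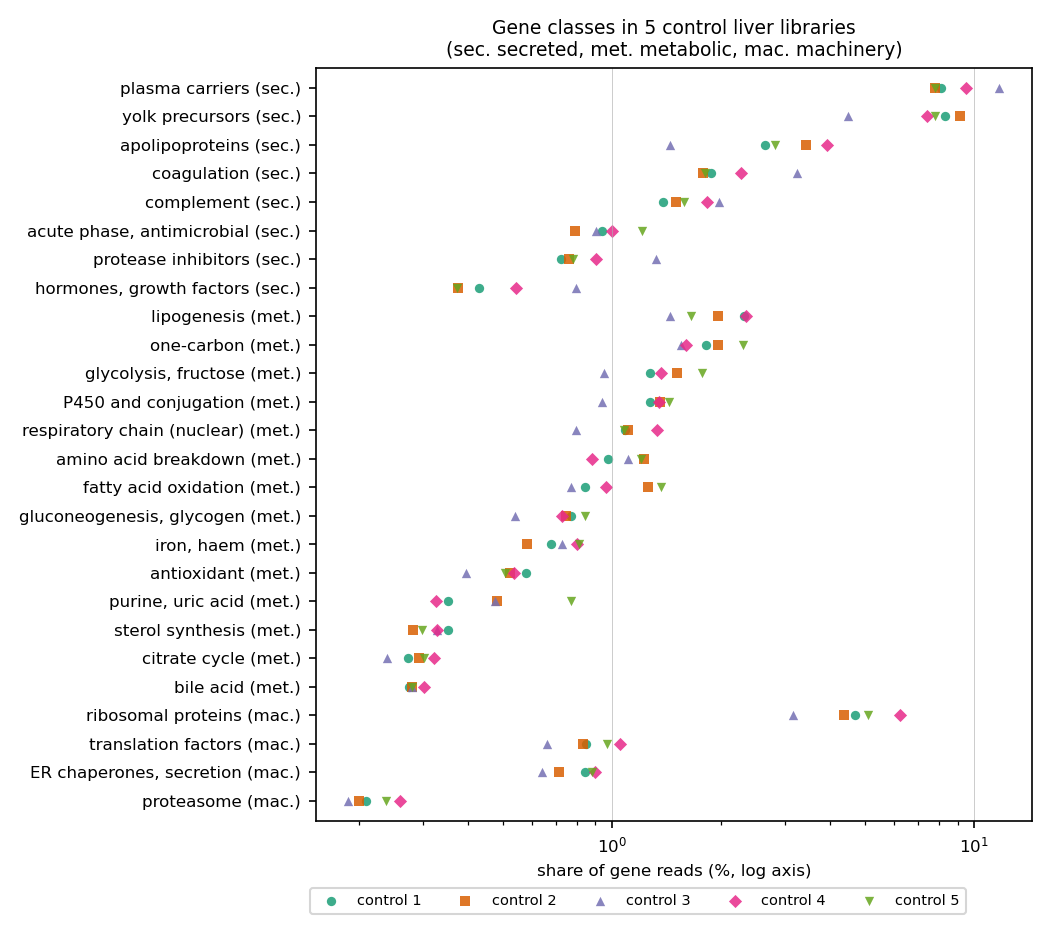
Share of gene reads in percent, on a log axis, of 26 gene classes in each control library. Plasma carriers and yolk precursors lie farthest right, and control 3 is lowest for yolk precursors, apolipoproteins and ribosomal proteins and highest for carriers, coagulation, complement and protease inhibitors.

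Plasma carriers took 9.00% ± 1.70 on average. Albumin stood at 35820, 41240, 21330, 36640 and 32020 CPM, lowest in control 3. PIT54, an acute phase protein of birds that binds haemoglobin, stood at 11910, 7257, 18780, 11050 and 10100 CPM. TF, the iron carrier transferrin, stood at 6547, 5158, 7814, 6963 and 3848 CPM. Members of the class moved in opposite directions in control 3. There ORM1, EXFABP, CP and HPX were at least 2-fold above the median of the other 4 libraries and above each of them, and 4 members lay as far below, out of 16 that reached a mean of 10 CPM. Over all genes the same 2 rules took 2.65% and 2.39% in control 3. ORM1, which encodes the acute phase protein orosomucoid, stood at 1070, 1805, 17940, 4278 and 1459 CPM, and its SD of 1.64 became 0.856 without control 3. AHSG, which encodes fetuin A, a plasma protein that falls in inflammation in mammals, stood at 3888, 2908, 862, 3539 and 3491 CPM. TTR, the thyroid hormone and retinol-binding protein carrier, stood at 1318, 913, 406, 1939 and 953 CPM. RBP4A, the plasma retinol carrier, was steadier at 901 to 1592 CPM, and GC, the vitamin D-binding protein, ran from 2167 to 4725 CPM.

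Coagulation genes took 2.19% ± 0.62 of gene reads. The 3 fibrinogen chains held the top of the class, and each was highest in control 3. FGB stood at 4627, 4147, 10340, 5422 and 4025 CPM. FGA stood at 3830, 3209, 8308, 5169 and 3562 CPM. FGG stood at 3469, 3206, 7856, 5087 and 3327 CPM. Their SDs of log2 CPM lay close together, at 0.559, 0.554 and 0.554. Plasminogen, PLG, which dissolves fibrin, was steadier at 1563 to 2395 CPM. No member of 20 was variable, beside 2.11% of all genes, and the median SD of 0.284 was near the 0.274 of all genes. In control 3, 10 of the 20 had their highest level, beside 19.0% of all genes. There 3 members, the fibrinogen chains, lay at least 2-fold above the median of the other 4 libraries and above each. None lay as far below. Over all genes these rules took 2.65% and 2.39%.

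Complement took 1.65% ± 0.24. VTN, which encodes vitronectin, an inhibitor of the complement lytic pore, held 35.9% of the class and stood at 5198, 6385, 6585, 6303 and 5242 CPM. C3, the central component, ran from 3185 to 5453 CPM. In control 3, 9 of 23 members were at least 2-fold above the median of the other 4 libraries and above each. The same rule took 2.65% of all genes, and no member lay as far below. MASP2, a protease of the lectin pathway, stood at 24.7, 41.9, 152, 33.3 and 33.1 CPM, and its SD of 1.03 became 0.314 without control 3. C6, of the lytic pore, stood at 20.7, 36.6, 135, 77.4 and 47.3 CPM, and its SD of 1.03 became 0.829 without control 1 and 0.791 without control 3. The lectin MBL2 stood at 118, 180, 472, 136 and 169 CPM.

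Protease inhibitors took 0.899% ± 0.249. In control 3, 5 of 13 members lay at least 2-fold above the median of the other 4 libraries and above each. That rule took 2.65% of all genes. SERPING1, the inhibitor of the first complement component, led the class at 2417 to 3875 CPM. The serpin SPIA3 stood at 61.7, 50.1, 1210, 153 and 115 CPM, 7.93 times the next library, and its SD of 1.83 became 0.750 without control 3. A2ML4, of the alpha-2-macroglobulin family, stood at 873, 1020, 3155, 1909 and 678 CPM.

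The class of acute phase and antimicrobial proteins took 0.969% ± 0.156, and 81.0% of that was AvBD9. This gene encodes the beta-defensin AvBD9, and it stood at 6883, 6341, 7708, 8247 and 9924 CPM, with an SD of 0.249. AvBD10, a defensin encoded next to it in the reference annotation, ran from 875 to 1614 CPM. LBP, which binds bacterial lipopolysaccharide, stood at 94.6, 84.6, 196, 95.2 and 111 CPM, highest in control 3. Other members were lowest there: PGLYRP2, which recognises bacterial peptidoglycan, stood at 165, 202, 72.2, 196 and 167 CPM. LEAP2, a liver-expressed peptide, stood at 66.5, 56.0, 27.0, 112 and 33.4 CPM. In control 3, 1 of 7 members lay at least 2-fold above the median of the other 4 libraries and above each, and 2 as far below. Over all genes these rules took 2.65% and 2.39%. LECT2 had fewer than 1 CPM in each library.

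Among hormones and growth factors, GPX3, a secreted selenium peroxidase placed in this list, took 70.4% of the reads. It stood at 2729, 2461, 6435, 4001 and 2270 CPM. IGFBP4, which binds insulin-like growth factors, ran from 357 to 655 CPM, and AGT, the precursor of angiotensin, from 251 to 567 CPM. IGF1, the growth factor that the liver releases under growth hormone, had at most 0.352 CPM. INHBA, an activin subunit, was variable at 165, 48.9, 66.5, 35.9 and 17.8 CPM, and its SD of 1.18 became 0.813 without control 1 and 0.947 without control 5.

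Lipogenesis took 1.95% ± 0.40, the largest mean share of a metabolic class, though one-carbon metabolism took more in controls 3 and 5. LBFABP, a fatty acid-binding protein of the liver, led it at 4645, 4380, 3116, 5317 and 3598 CPM and held 21.7% of its reads. One-carbon metabolism had a mean share of 1.85%, so the order of these classes rests on which genes each list holds. THRSP, a promoter of fatty acid synthesis, stood at 3851, 2776, 1014, 4714 and 1952 CPM. FASN, the fatty acid synthase, stood at 2251, 1966, 868, 1984 and 1308 CPM. ACACA, which makes malonyl-CoA, ran from 515 to 1040 CPM and SCD, the desaturase, from 107 to 189 CPM, each lowest in control 3. ME1, the malic enzyme that supplies NADPH, was variable at 416, 232, 50.4, 540 and 64.0 CPM, low in controls 3 and 5. Of 33 members, 15 were lowest in control 3, beside 29.3% of all genes. Control 4 was highest for 11, a share near the 27.3% of all genes. FABP1, another fatty acid-binding protein, ran the other way, at 612, 1084, 2510, 1772 and 673 CPM.

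Sterol synthesis took 0.318% ± 0.027, while its members had a median SD of 0.667 beside 0.274 over all genes. Control 5 was the lowest library for 21 of 25 members, and for 18 to 21 under the other scalings, beside 13.6% of all genes. In it 13 members lay at least 2-fold below the median of the other 4 libraries and below each, against 1.51% of all genes. MSMO1, a sterol demethylase, stood at 118, 55.8, 121, 117 and 21.8 CPM. FDPS, which makes farnesyl pyrophosphate, stood at 301, 146, 277, 294 and 58.8 CPM. SQLE, the squalene epoxidase, stood at 53.0, 23.7, 39.0, 40.3 and 8.49 CPM. Their SDs of 1.08, 1.02 and 1.04 became 0.545, 0.501 and 0.484 without control 5. HMGCS1, a synthase early in the pathway, ran the other way and was highest in control 5, at 317, 736, 1010, 263 and 1373 CPM, and it held 23.4% of the reads of the class. Its SD of 1.04 became 0.921 without control 4 and 0.937 without control 5.

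Fatty acid oxidation and ketone formation took 1.04% ± 0.26. ACAT1, which joins acetyl-CoA units, stood at 517, 513, 374, 611 and 509 CPM. DECR2, a peroxisomal reductase of unsaturated fatty acids, stood at 485, 1070, 571, 765 and 1516 CPM, highest in control 5. PDK4, which holds back glucose oxidation, was variable at 44.7, 44.2, 123, 11.9 and 63.8 CPM, and its SD of 1.23 became 0.715 without control 4. CPT1A, the entry step of mitochondrial oxidation, ran from 39.0 to 111 CPM.

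Glycolysis and fructose entry took 1.37% ± 0.30. TKFC and KHK, which handle fructose, ran from 811 to 2018 CPM and from 666 to 1088 CPM. HKDC1, a hexokinase-like gene, stood at 145 CPM in control 1 and at 0.973 to 10.0 CPM in the other 4 libraries, and its SD of 2.95 became 1.54 without control 1. It reached a mean of 10 CPM only with control 1 included. Genes of gluconeogenesis and glycogen took 0.725% ± 0.112. G6PC, which releases free glucose, had the highest mean among them, at 2335, 2962, 1562, 1475 and 2692 CPM. FBP1 ran from 776 to 1638 CPM and UGP2 from 458 to 1862 CPM. Of the enzymes that make phosphoenolpyruvate, mitochondrial PCK2 stood at 42.0 to 84.9 CPM and cytosolic PCK1 at 0.235 to 2.23 CPM.

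One-carbon metabolism took 1.85% ± 0.30, and PSPH, the last enzyme of serine synthesis, held 45.7% of it at 8023, 8354, 6361, 7098 and 12090 CPM. PEMT, which methylates phosphatidylethanolamine to phosphatidylcholine, was steady at 1193 to 1554 CPM. BHMT, which remakes methionine from betaine, stood at 864, 1374, 863, 478 and 363 CPM. Amino acid breakdown took 1.08% ± 0.15 and was led by 2 enzymes of tyrosine breakdown, HPD at 1255 to 2999 CPM and TAT at 1445 to 2365 CPM. GLUL, which fixes ammonia as glutamine in the bird liver, ran from 676 to 1314 CPM. GPT2, an alanine aminotransferase, was variable at 75.2, 138, 284, 38.3 and 240 CPM, and its SD of 1.198 became 0.883 without control 4.

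Purine synthesis and breakdown took 0.481% ± 0.176. ATIC, which closes the purine ring, held 46.9% of it and stood at 1219, 2103, 2062, 1666 and 4123 CPM, highest in control 5. PAICS, an earlier step, ran from 251 to 785 CPM with the same highest library. XDH, which makes uric acid, stood at 425, 621, 909, 159 and 670 CPM, lowest in control 4. None of the 13 members was variable, beside 2.11% of all genes, yet their median SD of 0.451 was above the 0.274 of all genes.

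Drug-metabolising P450s and conjugating enzymes took 1.27% ± 0.19. ADH1C, an alcohol dehydrogenase, led at 2599 to 4408 CPM. CYP2C23a stood at 1703, 1170, 495, 1405 and 1616 CPM. Its neighbour in name, CYP2C23b, stood at 975, 598, 257, 748 and 1445 CPM. In control 3, 7 of 43 members lay at least 2-fold below the median of the other 4 libraries and below each. That rule took 2.39% of all genes. In control 4, 4 members lay as far above, against 1.64% of all genes. ADH6 was variable at 66.1, 284, 40.1, 301 and 31.1 CPM. Bile acid genes took 0.284% ± 0.010. Among them CYP8B1, which sets the ratio of bile acids, was variable at 14.8, 5.88, 35.9, 32.4 and 10.2 CPM, and its SD of 1.103 became 0.891 without control 2. CYP7A1, the rate-limiting enzyme, ran from 8.48 to 31.3 CPM.

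Iron storage and haem genes took 0.720% ± 0.094, of which FTH1, the ferritin heavy chain, held 78.5% at 4400 to 6781 CPM. MT3, a metallothionein, was variable at 19.8, 88.6, 157, 28.8 and 124 CPM. The row MT4L, absent from the annotation table used here, had the same 2 low libraries, at 547, 2832, 3189, 849 and 3538 CPM, and its SD of 1.24 became 0.960 without control 1. Antioxidant genes took 0.508% ± 0.068, led by catalase, CAT, at 1462 to 2514 CPM.

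Nuclear genes of the respiratory chain took 1.08% ± 0.19 and those of the citrate cycle 0.286% ± 0.032. Neither class held a variable gene, beside 2.11% of all genes. Control 3 was the lowest library for 61 of 66 respiratory chain genes and control 4 the highest for 55, a pattern kept at 59 to 63 and 53 to 56 genes under the other scalings. The size of the difference varied. ATP5F1B, an ATP synthase subunit, stood at 947, 1100, 892, 1133 and 1022 CPM. UQCRFS1, an iron-sulphur subunit of the respiratory chain, stood at 39.0, 47.6, 32.3, 95.03 and 38.8 CPM. In control 4, 5 of the 66 lay at least 2-fold above the median of the other 4 libraries and above each. That rule took 1.64% of all genes. Ribosomal proteins took 4.71% ± 1.12, with 4.699%, 4.384%, 3.153%, 6.231% and 5.087% in controls 1 to 5. Control 3 was the lowest for 71 of 72 and control 4 the highest for 68, or 71 to 72 and 67 to 68 under the other scalings. RPL30 stood at 306, 307, 166, 498 and 271 CPM. RPL14 and NDUFA11 were listed at 0 in all 5 libraries. Across all genes with a mean CPM of at least 10, control 3 was the lowest library for 29.3% and control 4 the highest for 27.3%, against 61 of 66 and 55 of 66 respiratory chain genes. The share of ribosomal RNA reads was highest in control 3 as well, at 18.68%, and its part in these differences was not tested.

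Genes of the endoplasmic reticulum that fold and export proteins took 0.795% ± 0.112. The chaperone CALR led them at 877 to 1202 CPM. HSP90B1, at 491 to 633 CPM, HSPA5, at 399 to 673 CPM, and PDIA3, at 461 to 752 CPM, had nearly equal means. Translation factors took 0.872% ± 0.149, with EEF1A1 at 1888 to 3327 CPM, and the proteasome 0.219% ± 0.029. None of these 3 classes held a variable gene, beside 2.11% of all genes.

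The list of nuclear receptors and hepatocyte transcription factors had few reads, 0.244% ± 0.026 of gene reads. It held no variable gene among 34, beside 2.11% of all genes. CREB3L3, a membrane-bound factor of liver lipid and acute phase genes, stood at 203, 453, 448, 248 and 549 CPM, and NR1I3, the xenobiotic receptor, at 157 to 280 CPM. MLXIPL, which turns on lipogenic genes in response to carbohydrate, ran from 498 to 806 CPM and SREBF1 from 130 to 258 CPM. Clock genes had a median SD of 0.589 over 14 genes, beside 0.274 over all genes. In control 4 PER3 stood at 17.0 CPM against 36.5 to 62.8 CPM in the rest, and PER2 at 9.54 against 19.0 to 28.6 CPM.

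Genes of other cell types were low and not equal among libraries. In bulk tissue, fewer cells of a type and less RNA per cell cannot be told apart. The 19 markers of macrophages, with 2 of them under 1 CPM, summed to 1114, 922, 1674, 1297 and 943 CPM. CSF1R, the growth factor receptor of macrophages, stood at 17.8, 13.4, 44.6, 25.0 and 19.3 CPM. C1QC, a complement component that macrophages make, stood at 152, 123, 371, 147 and 142 CPM. In control 3, 6 of 13 tested macrophage markers were at least 2-fold above the median of the other 4 libraries and above each. That rule took 2.65% of all genes. C1QB, at 85.3 CPM in control 3, is in both the macrophage and the complement list, so the counts of these lists overlap. The 20 markers of heterophils and thrombocytes summed to 120, 121, 271, 166 and 95.1 CPM. Of these, AvBD4 and AvBD5 were listed at 0 and MPO was under 1 CPM. Heterophils are the avian counterpart of neutrophils. AvBD1 stood at 4.48, 0.319, 49.5, 12.2 and 0.796 CPM. AvBD7 stood at 11.0, 0.592, 43.4, 14.1 and 1.28 CPM. Both were highest in control 3 and lowest in controls 2 and 5. CSF3R, the receptor for granulocyte growth factor, stood at 7.73, 9.57, 47.8, 11.5 and 7.51 CPM, and its SD of 1.104 became 0.285 without control 3. Among the genes counted here, AvBD7, AvBD6 and AvBD1 follow one another in the order of the RefSeq annotation. They and CSF3R reached a mean of 10 CPM only with control 3 included, and they made up much of the list's sum there. THBS1, of the same list, was lowest in control 3, at 1.37 against 3.23 to 12.4 CPM. The haemoglobin gene HBBA of red cells stood at 245, 135, 394, 581 and 349 CPM. Lymphocyte markers summed to 165 to 225 CPM and endothelial markers to 776 to 855 CPM. Stellate cell and fibroblast markers summed to 823, 727, 460, 1045 and 737 CPM, and 19 of 21 tested ones were lowest in control 3, beside 29.3% of all genes. Among these were the collagen genes COL1A1, at 20.1 against 56.8 to 108 CPM, and COL3A1, at 18.3 against 25.0 to 58.8 CPM. Bile duct markers summed to 1618 to 2155 CPM, of which KRT18, a keratin that hepatocytes also make, held 64.0%.

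The 7199 genes with a mean CPM of at least 10 had a median SD of 0.274 on the log2 scale, with 5% of genes below 0.110 and 5% above 0.752. Counting error alone gives a median SD of 0.0559 at these depths. An SD of at least 1 was reached by 152 genes, 2.11%, of which 128 had a gene symbol. An SD of at least 2 was reached by 17. Of the 152, 47 stayed variable whichever library was left out. Leaving out control 3 ended the call of 41, control 5 of 29, control 1 of 25, control 4 of 19 and control 2 of 12.

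**Figure D3:**
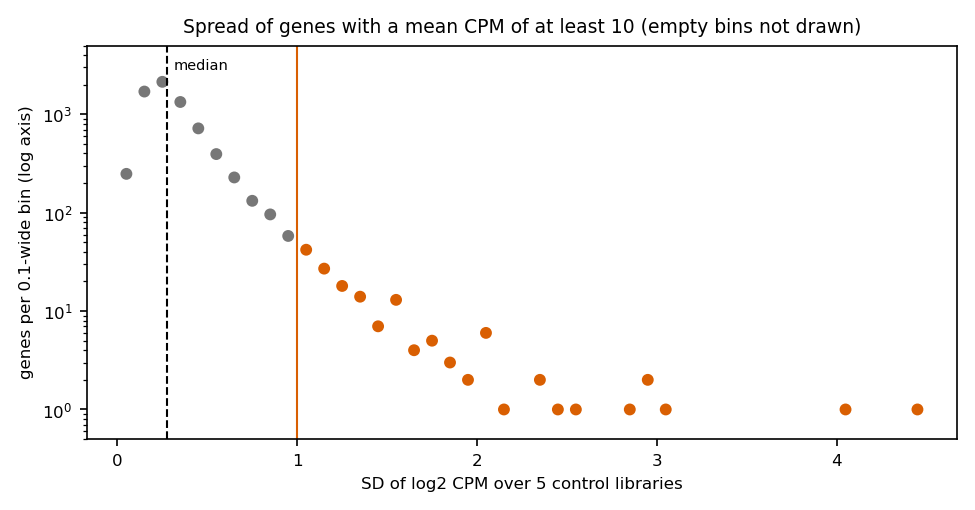
Number of genes, on a log axis, by SD of log2 CPM over the 5 control libraries in bins of 0.1, for the 7199 genes with a mean CPM of at least 10. The dashed line marks the median of 0.274, and the 152 genes in orange reach an SD of 1.

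ABCA12, a lipid transporter best known from skin, had the largest SD among genes with a symbol, 3.07. It stood at 1.44, 51.8, 12.0, 1.06 and 145 CPM, and its SD stayed between 2.61 and 3.55 whichever library was left out. ETNPPL, which breaks down phosphoethanolamine, stood at 9.81, 68.5, 113, 3.75 and 45.2 CPM. Both genes and DIO3, which inactivates thyroid hormone, were low in controls 1 and 4 and higher in controls 2, 3 and 5. DIO3 stood at 2.63, 19.7, 11.5, 2.93 and 63.1 CPM, and it reached a mean of 10 CPM only with control 5 included. CHAC1, which breaks down glutathione under amino acid shortage, stood at 345, 559, 124, 35.2 and 75.2 CPM.

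For other genes of the 25 most variable, most of the spread came from 1 library. PI3, named after a peptidase inhibitor, stood at 789 CPM in control 3 and at 5.55 to 10.2 CPM in the rest, 77.3 times the next library, and its SD of 2.99 became 0.388 without that library. PI3 reached a mean of 10 CPM only with control 3 included. HPS5, known from human as a gene of lysosome-related organelles, stood at 62.4, 41.0, 956, 55.6 and 22.7 CPM, and its SD of 2.09 became 0.648. HPS5 lies next to SAA, the gene of serum amyloid A, in the RefSeq annotation. No gene was counted under the name SAA, and any tie between SAA and the HPS5 level was not tested. ESPN, an actin-bundling protein, stood at 8.88, 8.89, 19.3, 13.3 and 175 CPM, and its SD of 1.79 became 0.534 without control 5. IFI6, an interferon-induced gene, stood at 12.1, 11.4, 5.99, 96.1 and 7.82 CPM, and its SD of 1.58 became 0.453 without control 4. Its mean reached 10 CPM only with control 4 included. GBP, a gene of the guanylate-binding protein family, was low in control 1, at 5.26 against 48.2 to 125 CPM, and its SD of 1.74 became 0.650 without control 1.

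**Figure D4:**
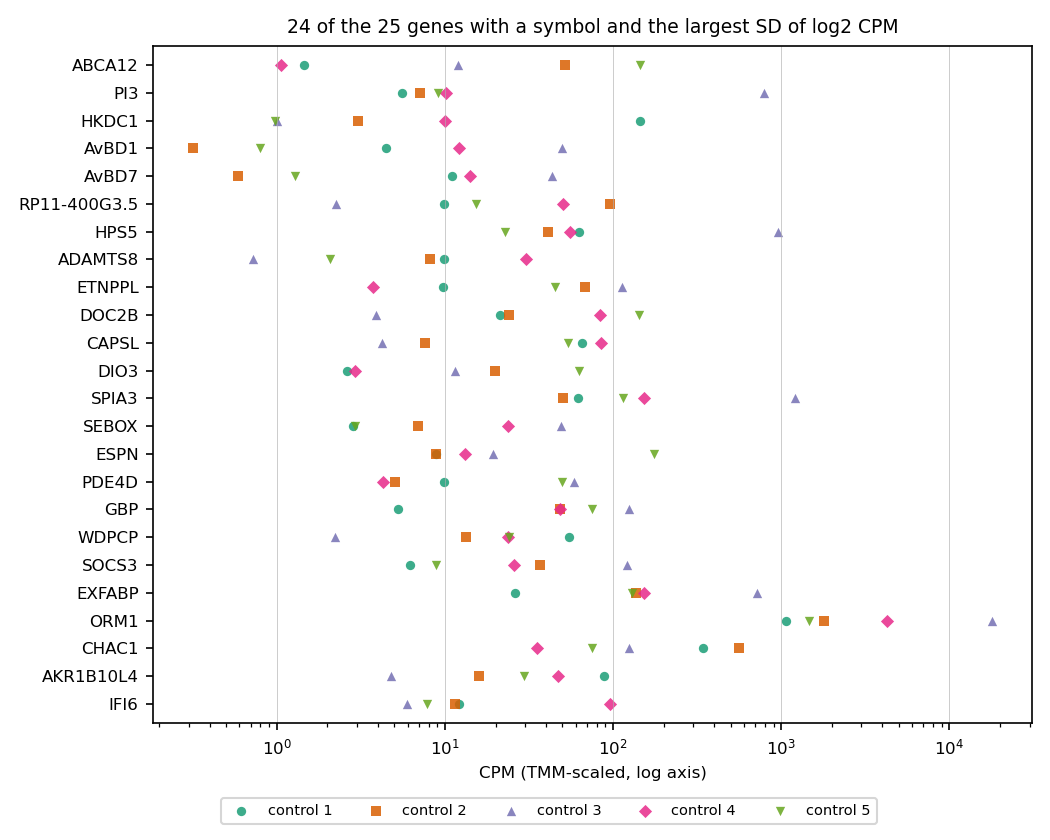
CPM on a log axis of 24 of the 25 genes with a symbol and the largest SD of log2 CPM, one symbol per control library. Control 3 lies far above the rest for PI3, HPS5 and SPIA3, control 1 for HKDC1, control 5 for ESPN and control 4 for IFI6.

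Control 3 had the most genes away from the others: 191 of 7199, 2.65%, lay at least 2-fold above the median of the other 4 libraries and above each of them, and 172, 2.39%, as far below. Above lay the genes of hemopexin, orosomucoid and fibrinogen, with SOCS3, an inhibitor of cytokine signalling, at 122 CPM against 6.22 to 36.7 CPM, and EXFABP, a lipocalin that binds bacterial siderophores, at 723 against 26.0 to 154 CPM. LDHB, a lactate dehydrogenase, stood at 1346 against 294 to 636 CPM. Below lay AHSG, TTR and THRSP. The summed markers of macrophages and the heterophil genes AvBD1, AvBD6, AvBD7 and CSF3R were higher in the same library. Their part in these differences was not tested.

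Control 4 had 118 genes, 1.64%, above and 109, 1.51%, below. Among interferon-related genes, 5 of 24 tested members lay above and none below. They include IFI6, which was tested only because control 4 raised its mean to 10 CPM. OASL stood at 16.0, 9.93, 27.2, 58.5 and 20.4 CPM. LY6E stood at 304, 508, 203, 821 and 334 CPM. B2M, the light chain of class I molecules, was highest there too but less than 2-fold above the median of the rest. It stood at 860, 690, 615, 1277 and 754 CPM. VIL1, a marker of intestine and bile duct brush borders, stood at 7.92, 15.5, 8.21, 77.6 and 20.5 CPM, and its SD of 1.34 became 0.667 without control 4.

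Control 2 had 65 genes, 0.903%, above and 40, 0.556%, below. Of the 21 tested immediate early genes, which respond within minutes to stress or growth signals, 7 lay above. FOS stood at 147, 542, 81.3, 290 and 68.0 CPM, and its SD of 1.26 became 0.932 without control 2. BTG2 stood at 271, 775, 326, 237 and 154 CPM. CYR61 stood at 17.8, 110, 13.5, 90.1 and 25.2 CPM. Control 4 was the next highest for FOS and CYR61 and not for BTG2. In control 5, 6 of the 21 lay below, against 1.51% of all genes, and 11 had their lowest level, or 8 to 12 under the other scalings, beside 13.6% of all genes.

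Control 5 had 103 genes, 1.43%, above and 109, 1.51%, below, the latter with the sterol genes named above. Control 1 had 138 genes, 1.92%, above and 109, 1.51%, below. HKDC1 and BUB1, a gene of the mitotic checkpoint, were higher there. BUB1 stood at 60.9, 10.7, 7.80, 19.8 and 3.58 CPM, while ASPM, another gene of dividing cells, stood at 7.52 to 9.18 CPM in all 5 libraries.

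**Figure D5:**
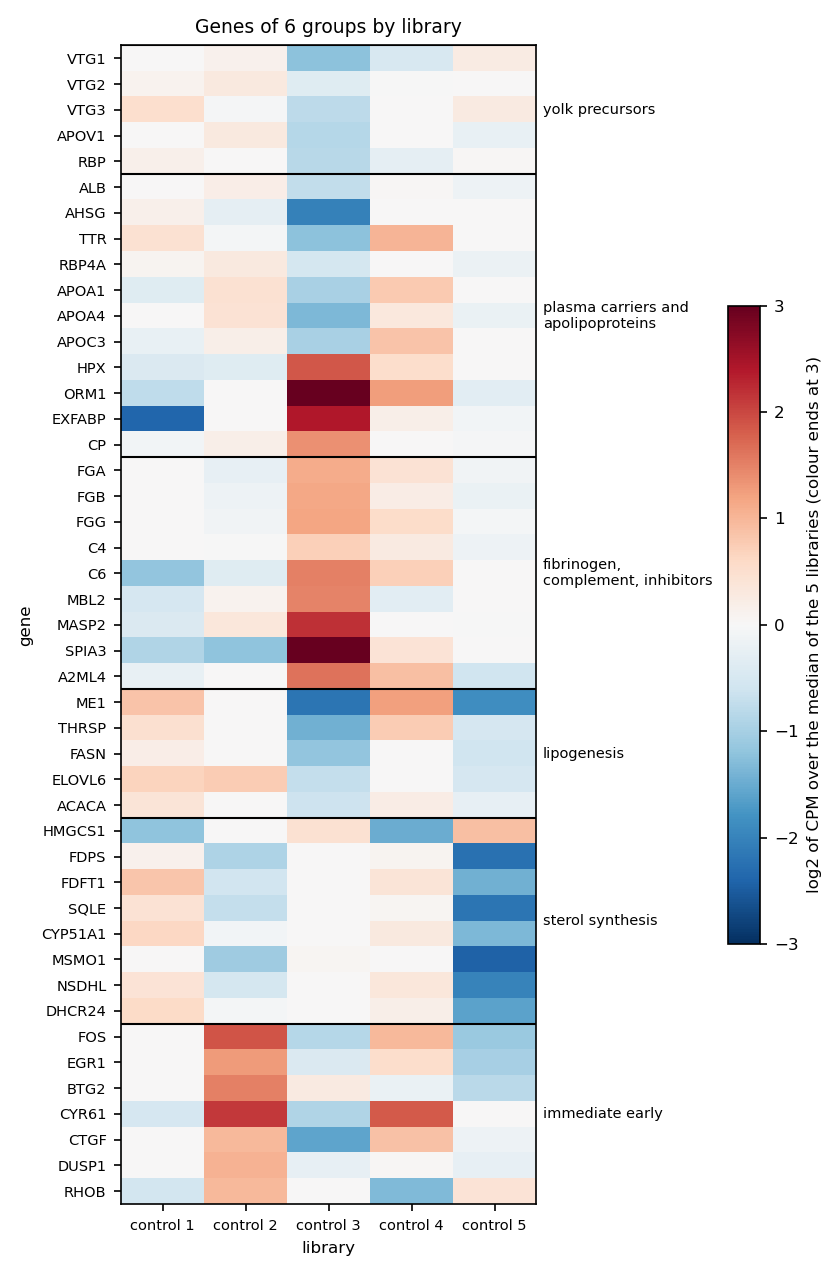
Log2 ratio of CPM to the gene's median over the 5 control libraries, by colour from blue (lower) to red (higher), for genes of 6 groups. Control 3 is red for ORM1, EXFABP, SPIA3 and the fibrinogen genes and blue for the yolk precursors and AHSG, control 5 is blue for sterol genes other than HMGCS1, and control 2 is red for immediate early genes.

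The steadiest genes with a mean of at least 100 CPM had SDs of 0.043 to 0.076. GPBP1L1 stood at 116 to 124 CPM, and UHMK1, a kinase, at 116 to 124 CPM. The translation factor EIF4A2 ran from 397 to 455 CPM. GAPDH, often used as a reference gene, was less steady, at 1232, 927, 527, 1744 and 1013 CPM with an SD of 0.632.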

How the data were processed

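RNA sequencing of 5 liver libraries from untreated hens was analysed. Unnormalised gene counts for 15 libraries were deposited by the authors, and the 10 libraries from metformin-fed hens were left out. FastQC 0.12.0, Trim Galore 0.6.4, STAR 2.7.11b, HTSeq 0.12.3 and the builds GRCg6a/galGal6 are named per the submitters' processing notes. Whether reads were counted by strand is in none of the sources used here.

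The 5 closing lines of the table, which name no gene, were dropped: 27.78% to 36.29% of reads lay outside genes (95% Wilson half-width at most 0.0154 percentage points, counting error only). Ribosomal RNA genes stayed in the library size. CPM was computed at TMM-scaled library sizes with edgeR 4.0.16 in R 4.3.3, and log2 CPM with a prior count of 2. Spread was the SD of log2 CPM over 5 libraries for genes with a mean CPM of at least 10, called variable at 1 or more. The script was tested on simulated data. The 5 libraries form 1 group, so there is no contrast and no p-value. The rule for a library away from the others, 2-fold from the median of the other 4 and beyond each, was chosen after seeing the data.

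Levels per transcript length had been planned, but no table of lengths was at hand, so shares of gene reads were used instead. RefSeq names and neighbours came from another build, GRCg7b, which matched 18461 of 24154 genes, so no coordinates are given. The members and the gene lists were chosen with earlier results of these data known, and 17 list entries were corrected after the table was read. The genes named are the 20 with most reads, the 25 with a symbol and the largest SD, the 10 steadiest with a mean CPM of at least 100, for each list the 4 highest members and the 2 with the largest SD, and a short list of yolk, carrier and lipid genes. The following were named after their values were seen: RBP4A, SQLE, MBL2, CP, COL3A1, CYP7A1, IGF1, PCK1, PCK2, HNF4A, ARIH1, MT4L, GC, LBP, PER2, CPT1A, LECT2, MPO, KHK, MLXIPL, SREBF1, AvBD6, THBS1 and the genes listed at 0. Some of the genes that the rule names are not reported here. Alternatives were DESeq2 1.42.0 size factors, total reads, no ribosomal RNA, other filters and prior count, the biological coefficient of variation, and each library left out.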

Additional observations from a re-analysis of the deposited data

Results flagged for a closer look

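Of 183 values tested for 1 library far from the other 4 (Dixon's test, 95%), 34 stood out: 19 in control 3, 5 in control 1, 5 in control 4, 3 in control 5 and 2 in control 2. Chance gives about 1 in 20 such groups only where the values are picked beforehand. Many genes here were named for their spread or after their values were seen, so they are not independent of this test. It was also run on CPM without logs, so the 1 in 20 cannot be set against the number that stood out.

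In control 3 the high genes were PI3 at 789.2 CPM and HPS5 at 956.4, which belong to no list, the serpin SPIA3 at 1210, and, of the carrier, complement, coagulation and acute phase lists, CP at 845.6, MASP2 at 151.7, MBL2 at 472, EXFABP at 722.6, ORM1 at 17940, FGB at 10340, LBP at 196.3 and HPX at 47370. AGT stood at 567.3 CPM and SOCS3, of cytokine signalling, at 121.8. The macrophage and heterophil genes C1QC, CSF3R and AvBD1 stood at 370.5, 47.78 and 49.47 CPM in the same library. APOB, PEMT and PGLYRP2 were low there, at 3392, 1193 and 72.24 CPM.

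Control 1 was high for HKDC1 at 145.2 CPM, ARIH1_1 at 14700, BUB1 at 60.87 and AvBD10 at 1614, and the share of the heat shock genes was low there at 0.1469%. Control 4 was high for IFI6 at 96.12 CPM, VIL1 at 77.55, UQCRFS1 at 95.03 and CALR at 1202, and for the share of bile acid genes at 0.302%. Control 5 was high for ESPN at 174.8 CPM, ADA at 47.03 and DIO3 at 63.12. Control 2 was high for BTG2 at 775 CPM and LECT2 at 0.319 CPM, the latter from a handful of reads.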

How the results depend on the processing

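No paired analysis was possible because the 5 libraries form 1 group. The number of variable genes, 152, was 570 (4.73%) with a mean CPM of at least 1, 46 with at least 50, 2077 (8.60%) with no filter, and 45 (0.625%) by a biological coefficient of variation of at least 0.7, all 45 among the 152. The filters change which genes are tested. Without ribosomal RNA in the denominator, the secreted share was 28.97%, the metabolic share 14.65% and that of the 20 genes with most reads 25.56%. Leaving out each library in turn gave 148 to 195 variable genes, 2.05% to 2.69%, a median SD of 0.242 to 0.285, 12026 to 12074 genes with a mean CPM of at least 1, and shares of 25.02% to 25.82% (secreted), 12.54% to 13.55% (metabolic), 6.135% to 7.086% (machinery), 7.002% to 8.165% (yolk precursors) and 22.43% to 22.60% (the 20 genes). Under total reads MASP2 and FDPS fell below an SD of 1 and ADA rose above it, and of 249 named genes 29 moved in level by more than 1 SD when ribosomal RNA was left out of the library size. The length-scaled alternative was not run. Depth limits genes under 10 CPM, where counting error is a larger part of the spread.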
